A study of Mus musculus with 8 samples.

Results

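Müller glia with reactive transcripts were 125 of the 3747 nanowells of the single-cell RNA data, each well selected to hold a single cell or nucleus. A well counted as Müller glia when Apoe reached 15000 CPM (reads of a gene scaled to a fixed library total) and the summed CPM of Apoe, Glul, Rlbp1, Clu, Dkk3, Slc1a3 and Aqp4 reached 20000, which 317 wells did. A gated well was called reactive when it held at least 1 read of A2m, Serpina3n, C4b or Gfap, and non-reactive when it held 0 reads of them, which left 192 wells. The wells were thus selected on the measured reads of these 11 genes, so their levels are given below as a description, with no test. The 3 reactive wells with the lowest Apoe stood at 15802, 15952 and 16014 CPM, and the 3 wells just outside the gate at 14790, 14698 and 14636 CPM.

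Retinas of mice that lack Spata7, a protein of the photoreceptor connecting cilium, were profiled beside wild-type (WT) retinas at 1, 3 and 6 months of age. The knockout (KO) animals carried the Spata7 mutation of Eblimit et al., for which the labels name no limit to a cell type, and all groups were labelled male and of the C57BL6/J background, kept on a standard diet and light-dark cycle. Each genotype and age was 1 library, and the labels do not say how many animals it pooled, so no group had a replicate. Chromatin accessibility was profiled in nuclei of WT retina at 7 months and of KO retina at 6 months, with 1 library each. The library labelled WT 1 month held 0 reads of 4 Y-linked genes and 110 CPM of Xist, against 149 to 256 CPM of the Y-linked genes in the other libraries, which goes against its label of male. Differences fitted over 4 libraries include it, and values without it are given below for most gene lists and for several of the genes named. Spata7 itself stood at 20.2 to 32.2 CPM in the WT libraries and 1.38 to 4.07 CPM in the KO libraries. Median reads per well ran from 25603 in the KO 1 month library to 189067 in the library labelled WT 1 month. Among 15 pairs of libraries, 0 had reactive wells at a shared chip position.

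Müller glia are the radial glia that span the retina. They clear glutamate through the transporter Slc1a3, turn it into glutamine with Glul, carry retinoids on Rlbp1 and move water and potassium through Aqp4 and Kcnj10. When photoreceptors are injured, Müller glia enter a reactive state known for the intermediate filament Gfap, the protease inhibitors Serpina3n and A2m, and the complement component C4b. Astrocytes share much of that response.

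Promoters of Serpina3n and Gfap are printed because they are the reactive genes of the rule with a promoter entry, and each window overlapped a peak of the KO accessibility list and no peak of the WT list. Of the 11 rule genes, 6 had an entry in the RefSeq promoter table (GRCm38.p6), which spans 250 bases before to 50 after a start site. A2m, C4b, Clu, Dkk3 and Aqp4 are named only. Capitals mark a match to the STAT motif TTCNNNGAA, whose first base lies 2 bases before the Gfap start site. Serpina3n lies at chr12:104406458-104406757 on the plus strand and Gfap at chr11:102897151-102897450 on the minus strand.
Serpina3n: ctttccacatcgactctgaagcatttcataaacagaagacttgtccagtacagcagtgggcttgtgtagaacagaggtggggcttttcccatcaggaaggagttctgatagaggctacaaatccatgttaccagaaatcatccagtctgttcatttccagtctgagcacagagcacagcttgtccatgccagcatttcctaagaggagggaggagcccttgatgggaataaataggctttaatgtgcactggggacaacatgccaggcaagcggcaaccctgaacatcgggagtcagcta
Gfap: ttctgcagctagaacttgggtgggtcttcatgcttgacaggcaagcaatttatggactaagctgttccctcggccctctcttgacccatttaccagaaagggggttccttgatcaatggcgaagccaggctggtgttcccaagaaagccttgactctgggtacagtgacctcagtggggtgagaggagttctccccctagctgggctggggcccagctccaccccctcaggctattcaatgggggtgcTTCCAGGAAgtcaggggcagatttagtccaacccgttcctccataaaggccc
The 3 motifs searched on both strands were STAT (TTCNNNGAA), AP-1 (TGANTCA) and C/EBP (TTGCNNCAA), and no match overlapped another in these windows. Of 32851 promoters of the same length, 8.30% held the STAT letters, 7.81% the AP-1 letters and 2.08% the C/EBP letters. The Gfap window held 1 match and the Serpina3n window 0. Among the gate genes, the Slc1a3 window also overlapped a peak of the KO list only, although the authors annotate a promoter peak of Slc1a3 in both lists, and held 1 STAT match (TTCCAAGAA, first base 96 bases before the start site).

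KO retina gave 117 of the 125 reactive wells and WT retina 8. At 1 month, 32 of 61 gated KO wells were reactive (52.5%, exact 95% binomial interval 39.3 to 65.4%), against 7 of 78 gated WT wells (8.97%, 3.68 to 17.6%). At 3 months the counts were 54 of 100 KO wells (54%, 43.7 to 64.02%) and 1 of 9 WT wells (11.1%, 0.281 to 48.2%). At 6 months they were 31 of 57 KO wells (54.4%, 40.7 to 67.6%) and 0 of 12 WT wells (exact upper limit 26.5%). The KO share lay above the WT share at each age and was nearly level among the 3 ages. The intervals are over wells of 1 library each and cover counting error only, so they do not compare the genotypes.

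**Figure D1:**
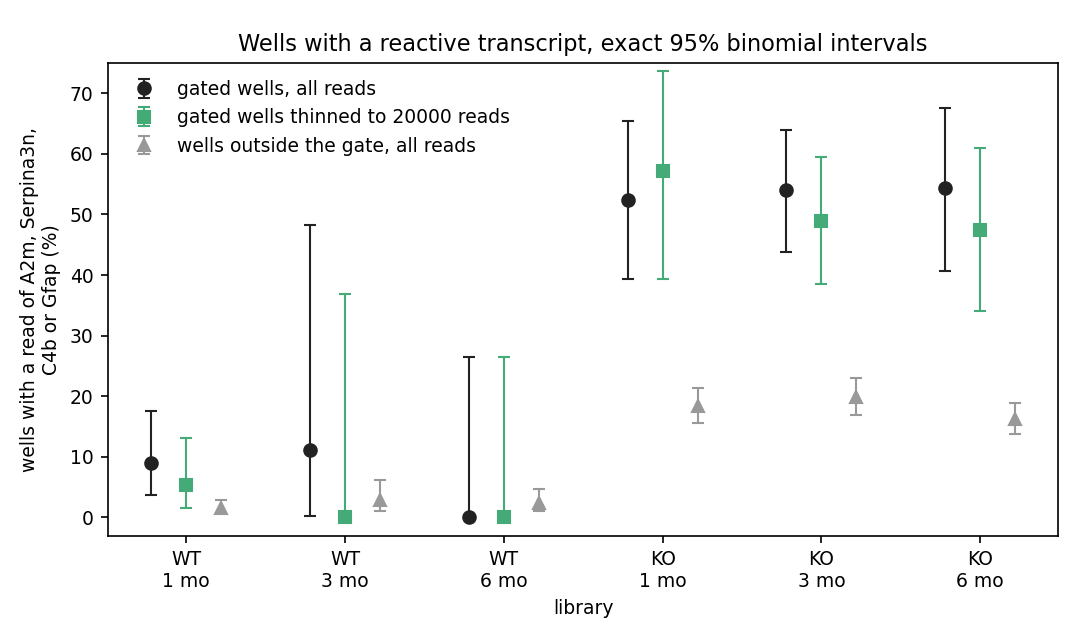
Share of wells (%, vertical axis) with at least 1 read of A2m, Serpina3n, C4b or Gfap in each of the 6 libraries (horizontal axis), with exact 95% binomial intervals that cover counting error only. Circles show gated wells with all reads, squares gated wells thinned to 20000 reads, and triangles wells outside the gate. The 3 KO libraries sit at 52.5 to 54.4% among gated wells and at 16.2 to 19.8% outside the gate.

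The mean difference between KO and WT was 46.9 percentage points (43.5, 42.9 and 54.4 points at 1, 3 and 6 months, higher in KO at 3 of 3 ages). Swapping the 2 genotypes at each age in an exact permutation test (two-sided) gave p = 0.25, the smallest value its 8 arrangements allow, so this design cannot reach 0.05. The share is made from the reads of the 4 rule genes, and its difference is given as a description. Without the 1 month pair, and so without the library that went against its label, the difference was 48.6 points. Depth differed between libraries, and after thinning every gated well to 20000 reads 20 of 35, 46 of 94 and 27 of 57 KO wells stayed reactive at 1, 3 and 6 months, against 4 of 75, 0 of 8 and 0 of 12 WT wells. The thinned difference was 49.4 points. Thinning left out 26 shallower KO wells at 1 month and 6 at 3 months, and 3 WT wells at 1 month and 1 at 3 months.

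Reads of the 4 genes also lay outside the gate, and their source was not tested. Wells outside the gate included other cell types: of 12 wells with pigment epithelium markers, as defined below, 4 were gated and 9 held A2m. In wells outside the gate, 18.3, 19.8 and 16.2% of KO wells at 1, 3 and 6 months held such a read, against 1.56, 2.90 and 2.39% of WT wells. In rod-rich wells outside the gate (20 rod markers at 100000 CPM or more), a cell type not known to make these transcripts, the shares were 15.8, 20.3 and 12.8% in KO and 1.56, 0 and 2.05% in WT. Rod-rich KO wells had median depths of 24829, 57181 and 113648 reads, against 26663, 69505 and 171986 reads in gated KO wells. Between KO and WT the share outside the gate moved in the same direction as the gated share, and its part in the difference was not tested.

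C4b, a component of the classical complement pathway, was found in 77 of 125 reactive wells, Serpina3n in 52, A2m in 27 and Gfap in 23. The order differed between libraries: in KO at 1 month Serpina3n was found in more wells than C4b (17 against 15 of 32), and in the 8 WT wells C4b, Serpina3n and A2m were found in 3 each. Most reactive wells rested on a single gene: 81 held reads of 1 of the 4, 36 of 2, 6 of 3 and 2 of all 4. Serpina3n and C4b were together in 25 wells, which is 48.1% of the Serpina3n wells and 32.5% of the C4b wells. Of 117 KO reactive wells, 10 held 1 read of the 4 genes and 90 held 10 or more, with a median of 32 and a highest value of 1345 reads. The 8 WT reactive wells held a median of 21 reads, and 4 of them held 10 or more.

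C4b stood at 903 CPM in the summed KO reactive wells at 1 month (15 of 32 wells), 210 CPM at 3 months (38 of 54 wells) and 197 CPM at 6 months (21 of 31 wells). In the library labelled WT 1 month it stood at 12.9 CPM (3 of 7 wells). C4b has a near-identical neighbour, C4a, and the counting could split their reads, so its level is uncertain. Among the wells that held it, the median was 1044, 161 and 260 CPM in KO at 1, 3 and 6 months, with the highest wells at 5021, 2355 and 2288 CPM. Among the 3 KO libraries, the 1 month library thus had the highest level and the smallest share of wells, in the shallowest wells. After thinning, C4b was read in 8 of 35, 33 of 94 and 17 of 57 gated KO wells and in 0 of 75, 0 of 8 and 0 of 12 gated WT wells.

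Serpina3n, a serine protease inhibitor of reactive glia, stood at 537 CPM in KO reactive wells at 1 month (17 of 32 wells), 183 CPM at 3 months (21 of 54) and 87.7 CPM at 6 months (11 of 31). In the library labelled WT 1 month it stood at 5.64 CPM (3 of 7 wells, 31 reads in all). It belongs to a cluster of close paralogs among which reads could be split. The medians among KO wells that held it were 939, 286 and 225 CPM. Outside the gate it stood at 22.7 to 42.4 CPM in the KO libraries and at 0 to 0.0890 CPM in the WT libraries.

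A2m, a broad protease inhibitor, stood at 913 CPM in KO reactive wells at 1 month (9 of 32 wells), 31.7 CPM at 3 months (10 of 54) and 71.8 CPM at 6 months (5 of 31). A single well gave 53.2% of the A2m reads at 1 month and 51.4% at 6 months. In the WT libraries A2m read 199 CPM at 1 month (2 of 7 reactive wells) and 12.9 CPM at 3 months (1 read in 1 well). Those 3 WT wells also held 104548, 108595 and 96821 CPM of 11 pigment epithelium markers, such as Rpe65 and Ttr, with 9 or 10 of the markers detected. Outside pigment epithelium wells, A2m had 0 reads in gated WT wells and 1258, 200 and 273 reads in gated KO wells at 1, 3 and 6 months. Outside the gate it stood at 34.3, 38.0 and 10.8 CPM in KO and 4.69, 26.02 and 0.178 CPM in WT at the 3 ages, so the WT 3 month library lay above the KO 6 month library.

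Gfap, the intermediate filament of astrocytes and reactive Müller glia, stood at 116 CPM in KO reactive wells at 1 month (7 of 32 wells), 39.3 CPM at 3 months (9 of 54) and 47.3 CPM at 6 months (6 of 31). A single well gave 50%, 70.2% and 57.8% of those reads. The library labelled WT 1 month held 1 read. Gfap therefore marked few of the reactive wells, and its levels rest on few wells.

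**Figure D2:**
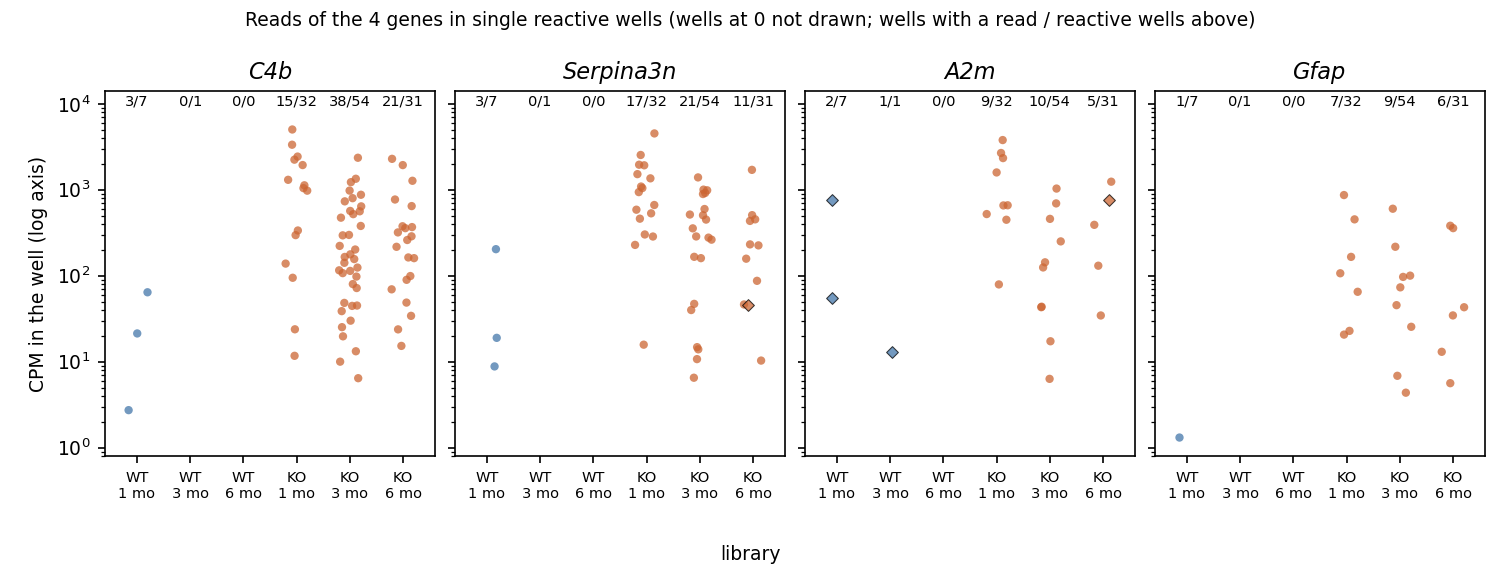
CPM (vertical log axis) of C4b, Serpina3n, A2m and Gfap in each reactive well that held a read of the gene, by library (horizontal axis), blue for WT and orange for KO. Outlined diamonds are wells with pigment epithelium markers, and the numbers above give wells with a read out of reactive wells, such as 38 of 54 for C4b in KO at 3 months. The 3 WT wells with A2m are all diamonds.

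Müller identity was checked with 29 Müller genes that the rule did not use, among them the transcription factors Sox9 and Sox2, the potassium channel Kcnj10 and the filament Vim. Their summed level was 19404, 24811 and 19734 CPM in KO reactive wells at 1, 3 and 6 months, against 15277, 17578 and 14886 CPM in KO non-reactive wells. In the library labelled WT 1 month the order was opposite, 20125 CPM in reactive and 31599 CPM in non-reactive wells. The median KO reactive well held reads of 14.5, 20 and 22 of the 29 genes at the 3 ages, and the lowest reactive well of all libraries summed to 4123 CPM. Every KO reactive well thus held Müller transcripts outside the rule, but all of them also held rod RNA, described below. Non-reactive wells reached lower values. Their lowest KO wells summed to 1124, 139 and 1795 CPM at 1, 3 and 6 months, and held 148263, 85732 and 95329 CPM of rod markers. The median KO non-reactive well held reads of 8, 10.5 and 17 of the 29 genes. With 43.95 CPM, a WT 1 month well was the lowest non-reactive one, at 138916 CPM of rod markers. Müller identity is therefore uncertain for such non-reactive wells.

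Wells were counted as carrying another non-neuronal cell type past set limits: reads of at least 5 pigment epithelium markers summing to 5000 CPM, of 3 astrocyte markers summing to 1000 CPM, or of 4 microglia, endothelial or pericyte markers. Lower levels of these markers were present in other wells. Past these limits stood 13 of the 125 reactive wells (9 KO and 4 WT), against 9 of 192 non-reactive wells. Among the reactive wells, 4 passed for pigment epithelium, 3 for astrocytes, 2 for microglia, 2 for endothelium and 2 for pericytes. Among the non-reactive wells, 7 passed for microglia, 1 for endothelium and 1 for pericytes. The WT reactive wells were the least certain, since 3 of 8 were pigment epithelium wells and 1 was an astrocyte well with 9466 CPM of astrocyte markers. Without pigment epithelium wells the difference in share was 51.2 points, and without wells of any other type 51.1 points.

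Rod RNA was in every gated library and ran lower in reactive wells. The summed level of 20 rod markers was 53457, 22372 and 35191 CPM in KO reactive wells at 1, 3 and 6 months, against 70835, 39702 and 46571 CPM in KO non-reactive wells, and 8858 against 16483 CPM in the library labelled WT 1 month. Reactive wells were also deeper, with median reads of 36117 against 18228, 99491 against 39033 and 177836 against 148450 in KO, and 794624 against 411759 in the library labelled WT 1 month. Depth and rod RNA therefore moved with the reactive state in all 4 libraries, and their part in the differences below was not tested.

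**Figure D3:**
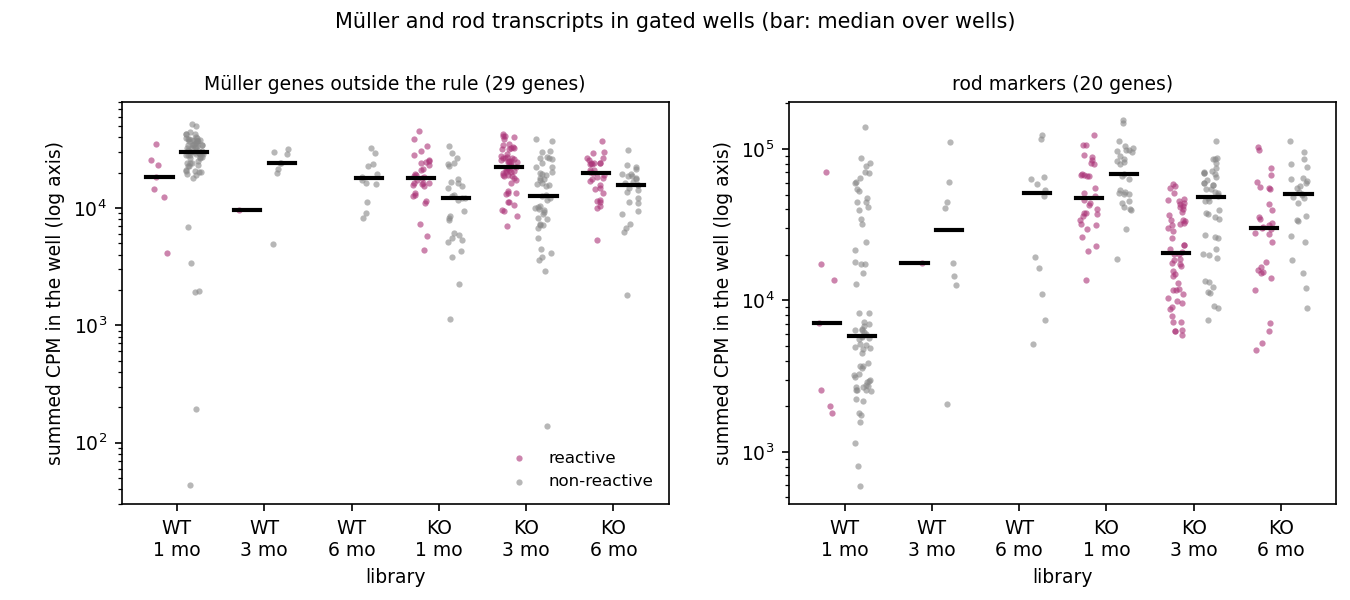
Summed CPM (vertical log axis) of 29 Müller genes outside the rule (left) and 20 rod markers (right) in each gated well by library (horizontal axis), purple for reactive and grey for non-reactive wells, with bars at the median over wells. In the 3 KO libraries the median for Müller genes is higher in reactive wells, such as 22548 against 12735 CPM at 3 months, and the median for rod markers is lower, 20618 against 48302 CPM.

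Reactive and non-reactive wells were compared across all other genes by summing reads over the wells of each state in the 4 libraries with at least 5 wells of each state (labelled WT 1 month, and KO at 1, 3 and 6 months), with the library as a block in edgeR's quasi-likelihood test. Of 9953 genes outside the rule, 1 passed a false discovery rate of 0.05 (0.01% called), and 173 had an unadjusted p under 0.05. On simulated sums with the spread of these data, the same test missed large changes, so a small count of calls does not show that the states are alike. DESeq2 called 49 higher (0.534%) and 45 lower (0.49%) of 9180. The median log2 difference of all genes was -0.08, and 452 genes (4.54%) were higher and 626 (6.29%) lower in each of the 4 libraries. The filter on low counts was set by state, so a gene read almost only in reactive wells could pass it. For such a gene, being higher in each library is close to fixed in advance.

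The gene that passed was Rdh5, the 11-cis retinol dehydrogenase of the pigment epithelium, with a log2 difference of 8.73 (SE 0.83, adjusted p = 0.00111 by edgeR with Benjamini-Hochberg adjustment, higher in 4 of 4 libraries). It read 1487 CPM in reactive against 5.30 CPM in non-reactive wells of the library labelled WT 1 month. In KO it read 31.9, 4.12 and 27.4 CPM at 1, 3 and 6 months, against 0 reads in non-reactive wells, so the fitted difference depends on the count added before the log. With 0 reads there, its direction in the KO libraries adds no support. The reads came from 3 of 7, 2 of 32, 2 of 54 and 1 of 31 reactive wells. Without the library labelled WT 1 month the log2 difference was as large, 9.14, and the adjusted p was 1. Without pigment epithelium wells Rdh5 did not pass the filter on low counts, and 0 of 9622 genes passed, with 154 at an unadjusted p under 0.05.

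No gene was called lower by edgeR. The 6 lower genes with the smallest p were C1qb, Mir124-2hg, Lyz2, Eif1b, Fcer1g and Gngt1, given with no claim. C1qb, a complement subunit of microglia, read 0, 32.7, 23.4 and 22.9 CPM in reactive wells (labelled WT 1 month, then KO at 1, 3 and 6 months) against 9.99, 204, 304 and 1050 CPM in non-reactive wells, a log2 difference of -4.41 (SE 0.81, adjusted p = 0.160 by edgeR). It was lower in 4 of 4 libraries, and it passed without the library labelled WT 1 month (log2 difference -3.96, adjusted p = 0.0148 by edgeR). Over its other alternatives the adjusted p ran from 3.48e-06 to 1. C1qb came from 7 of 117 KO reactive and 10 of 101 KO non-reactive wells, and 88.6% of the KO 6 month reads in non-reactive wells came from 1 well.

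Lyz2 and Fcer1g, further genes of microglia and macrophages, had log2 differences of -6.65 (SE 1.61) and -7.56 (SE 1.92), and 1 well gave all Lyz2 reads of non-reactive wells in the library labelled WT 1 month. With a reactive well defined by 10 or more reads of the 4 genes, in the 3 KO libraries, 6 genes were called lower (Ctss, Lyz2, Fcer1g, C1qc, C1qb and Ms4a7, all expressed by microglia and macrophages) and 0 higher, and Ccn2 had an adjusted p of 0.875. In a setting added after the data were seen, wells with 10 or more reads against wells with 0, Ctss, Lyz2, C1qb and Fcer1g were called lower and Ccn2 higher. Both settings kept the wells with microglia markers, and the part of those wells in the calls was not tested. When wells with microglia, endothelial or pericyte markers were left out of the main fit, 0 genes were called lower. C1qb then had a log2 difference of -4.46. Summed over 14 microglia markers, reactive against non-reactive wells read 208 against 921, 521 against 1062 and 37.7 against 4295 CPM in KO at 1, 3 and 6 months, and the median well was at 0 in each. KO wells with reads of at least 4 of these markers numbered 1, 1 and 0 among reactive and 0, 2 and 2 among non-reactive wells at the 3 ages.

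Mir124-2hg, a host gene of the neuronal microRNA miR-124, read 10.7, 335, 339 and 289 CPM in reactive against 130, 844, 1125 and 627 CPM in non-reactive wells (log2 difference -1.85, SE 0.44, adjusted p = 0.939 by edgeR). It is a neuronal transcript, and it was lower in 4 of 4 libraries beside the rod markers. Gngt1, the rod transducin gamma subunit, read 429, 6361, 2624 and 3951 CPM in reactive against 1314, 11045, 4080 and 5117 CPM in non-reactive wells (log2 difference -0.79, SE 0.20, adjusted p = 1 by edgeR). Eif1b, a translation initiation factor, had a log2 difference of -2.20 (SE 0.53).

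**Figure D4:**
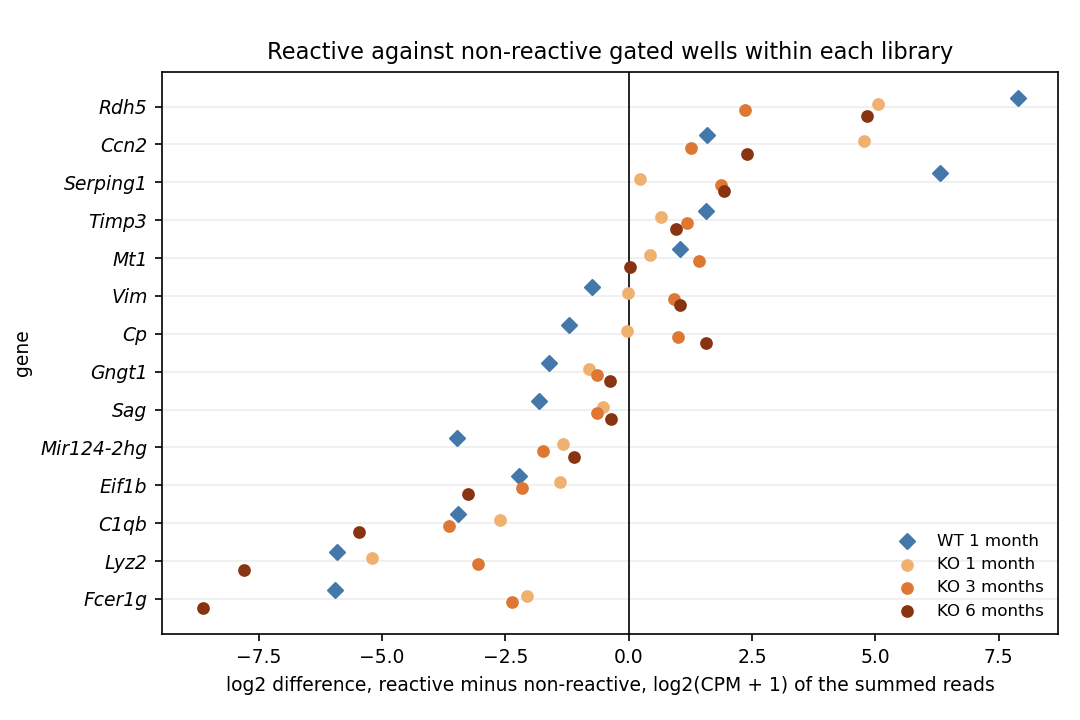
Log2 difference (horizontal axis) between reactive and non-reactive wells within each of 4 libraries, from log2(CPM + 1) of the summed reads, for the genes on the vertical axis. Diamonds show the library labelled WT 1 month and circles the 3 KO libraries. Rod genes Gngt1 and Sag lie left of 0 in 4 of 4 libraries, and Vim and Cp lie on both sides.

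Rod markers were tested as a list of another cell type. Of 20 tested, 11 were lower in each of the 4 libraries, beside 6.29% of all genes, 10 had an unadjusted p under 0.05, and 0 were called. Their median log2 difference was -0.63. Sag, the rod arrestin, had -0.76 (SE 0.21). Cone markers had a median of -0.64, with 1 of 8 lower in each library.

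Genes of the cytoskeleton and matrix had a median log2 difference of 0.58, with 7 of 21 higher in each of the 4 libraries, beside 4.54% of all genes, and 0 called. Ccn2, a secreted matrix protein and target of YAP signalling, read 398, 1793, 164 and 424 CPM in reactive against 132, 65.3, 67.9 and 80.1 CPM in non-reactive wells. Its log2 difference was 2.49 (SE 0.58, adjusted p = 0.886 by edgeR, 0.00648 by DESeq2), and 1 well gave 73.0% of the reads in KO reactive wells at 6 months. Ccn2 was read in 45 of 117 KO reactive and 22 of 101 KO non-reactive wells, and after thinning in 36.2 against 19.8% of them. Timp3, an inhibitor of matrix proteases, had 1.19 (SE 0.52) and S100a6, a calcium-binding protein, 0.95 (SE 0.80). Fn1 and Col4a1, both with fitted differences over 7, rested on 7 and 6 KO reactive wells.

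Of 10 pan-reactive glial genes tested besides Gfap and Serpina3n, 2 were higher in each of the 4 libraries, beside 4.54% of all genes. Those 2 were S100a6 and the endothelin receptor Ednrb. Of the 10 genes 0 were called, and the list median was 0.61. Vim read 454, 323, 539 and 709 CPM in reactive against 760, 326, 283 and 344 CPM in non-reactive wells, so it was lower in the library labelled WT 1 month and higher in KO at 3 and 6 months. Cp, the ferroxidase ceruloplasmin, did likewise with 475, 1626, 1318 and 1211 against 1099, 1661, 664 and 407 CPM. Neither passed the test (log2 difference 0.37, SE 0.39 for Vim and 0.41, SE 0.38 for Cp). Osmr and Cd44 had 0.64 (SE 2.12) and 0.58 (SE 0.94).

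Of 8 tested genes of the neuroinflammatory astrocyte list, 1 was higher in each library, beside 4.54% of all genes, with a median of 1.62. Of 5 other complement genes, 2 were higher and 1 lower in each library, beside 4.54% and 6.29% of all genes, with a median of -0.66. The lower one was Cd59a, an inhibitor of the membrane attack complex (log2 difference -1.97, SE 1.19, adjusted p = 1 by edgeR). Of 4 tested genes of the ischaemia astrocyte list, 0 were higher and 0 lower in each library, with a median of -2.92, and of the 3 tested without the library labelled WT 1 month the median was 0.76. Serping1, the C1 inhibitor, belongs to the neuroinflammatory astrocyte and the complement lists. It read 157, 338, 396 and 301 CPM in reactive against 0.993, 291, 107 and 78.2 CPM in non-reactive wells (log2 difference 2.35, SE 1.00, adjusted p = 1 by edgeR). All its reads in the 7 reactive wells of the library labelled WT 1 month came from 1 well, and without that library the log2 difference was 1.34. In KO it was read in 54 of 117 reactive and 20 of 101 non-reactive wells.

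Of 16 tested genes of the JAK-STAT pathway and early response, 0 were higher and 0 lower in each of the 4 libraries. Over all genes the shares were 4.54% and 6.29%, and the list median was 0.30. Stat3, a driver of Gfap, had a log2 difference of -0.88 (SE 1.28), Socs3, its feedback inhibitor, -0.31 (SE 2.07), and Fos and Jun, early transcription factors, 0.58 (SE 0.56) and 0.59 (SE 0.55). Interferon and antigen presentation genes had a median of 0.05 (2 of 19 higher in each library, beside 4.54% of all genes, Ifitm3 at 1.29, SE 0.56). Proliferation and reprogramming genes had a median of 0.05. In each library 0 of 16 were higher and 2 lower, beside 4.54% and 6.29% of all genes. The 2 lower were Ccnd1 and Pcna, at -0.93 (SE 0.69) and -1.10 (SE 1.15).

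Of 17 tested genes of Müller transport and homeostasis, 1 was higher and 1 lower in each library, beside 4.54% and 6.29% of all genes. The list median was 0.09. Kcnj10, the inward-rectifier potassium channel, had -0.36 (SE 0.56) and Slc38a3, a glutamine transporter, 0.32 (SE 0.48). The gene higher in each library was Gja1, connexin 43, a defining astrocyte gene. It was read in 5 of 117 KO reactive and 0 of 101 KO non-reactive wells (log2 difference 10.54, SE 1.81, adjusted p = 0.112 by edgeR). With almost no reads in non-reactive wells, its direction in each library adds no support. Pdgfra, also an astrocyte marker, was read in 7 of 117 and 1 of 101. Of 5 tested astrocyte markers, 2 were higher in each library, beside 4.54% of all genes, with a median of 4.74. Summed over 10 astrocyte markers, reactive wells were higher in 3 libraries and lower in KO at 3 months (112 against 132 CPM). The median reactive KO well held 0 CPM of the list. Mt1, the metallothionein, had 0.80 (SE 0.33) and Fth1, ferritin, 0.09 (SE 0.22). Of 14 tested lipid and cholesterol genes, 0 passed and 1 was above 0 in each library, beside 4.54% of all genes, with a median of -0.13.

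All 29 measured Müller genes outside the rule were tested, and 0 passed after adjustment over all genes. The list median was 0.15, and over all genes 4.54% were higher and 6.29% lower in each of the 4 libraries. The difference within a library was above 0 in each of the 4 libraries for 4 of them and below 0 in each for 0. Those 4 were Sox9, a gliogenic transcription factor (log2 difference 2.26, SE 1.09), Timp3, an inhibitor of matrix metalloproteinases (1.19, SE 0.52), Pdpn (1.14, SE 0.57) and Mt1. Each of the 4 had an adjusted p of 1 by edgeR.

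Of 9 tested genes of the retinoid cycle, 1 passed, which was Rdh5, the 1 gene called among all 9953 (0.01%). Of 4 tested pigment epithelium markers, 1 passed, again Rdh5, and the list median was 6.30. Ttr, the thyroid hormone and retinol transport protein, was above 0 in each library (log2 difference 7.98, SE 1.56, adjusted p = 0.255 by edgeR). Its difference was 1.52 without pigment epithelium wells and 5.36 without the library labelled WT 1 month. Bipolar, amacrine, endothelial and pericyte markers had list medians of 0.18, 0.19, 0.21 and 0.09, and 0 of them passed.

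Without the library labelled WT 1 month, the median log2 difference of all 10109 genes tested moved from -0.08 to 0.25, so list medians are read beside that value. The medians were 0.47 for the Müller genes outside the rule, 0.72 for both the pan-reactive and the cytoskeleton and matrix genes, 0.54 for JAK-STAT and early genes, 0.50 for interferon genes, 0.27 for transport and homeostasis, 0.54 for lipid and cholesterol genes and 0.79 for proliferation and reprogramming. Complement genes other than C4b had a median of 1.34, against -0.66 with that library. Rod and cone markers stood at -0.54 and -0.64, and microglia markers stood at -3.94. Pigment epithelium markers had a median of 3.94 and astrocyte markers 3.75, while amacrine and pericyte markers stood at 2.12 and 1.17.

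Among single genes, Stat3 stood at 0.04, Socs3 at 0.56 and Osmr at -0.41 without that library, each on the other side of 0 from the value with it. Jun, at -1.73 within the library labelled WT 1 month, stood at 1.19 without it, and Cp at 0.83 and Vim at 0.64. Sox9, Pdpn, Fos and Timp3 stood at 2.67, 1.30, 0.71 and 0.94, and Eif1b, Lyz2 and Fcer1g at -2.30, -5.85 and -6.43. Of these genes 0 passed the test in the 3 KO libraries, and C1qb was the 1 gene of all tested that did.

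Detection after thinning gave a second view of the KO wells, in 105 reactive and 81 non-reactive wells at 20000 reads each, with the state taken from all reads. Of the 29 Müller genes outside the rule, 29 were read in a larger share of reactive wells, beside 71.0% of the 9953 tested genes. Cp was read in 92.4 against 65.4% of wells, Hes1, a Notch target, in 70.5 against 44.4%, and Pdpn, podoplanin, in 47.6 against 17.3%. Of 20 rod markers, 13 were read in a smaller share of reactive wells, beside 28.9% of all genes. Thinned wells of the 3 KO libraries were pooled here, so these shares are a description without a test.

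KO and WT reactive wells could not be tested against each other. Only 4 libraries held at least 5 reactive wells, and a fit with age and genotype left 0 residual degrees of freedom. Side by side at 1 month, Glul stood at 3008 CPM in KO and 3705 CPM in WT reactive wells, and at 2572 and 9497 CPM in non-reactive wells. Müller genes outside the rule summed to 19404 CPM in KO and 20125 CPM in WT reactive wells, and to 15277 and 31599 CPM in non-reactive wells. The WT reactive values rest on 7 wells, of which 2 were pigment epithelium wells and 1 was an astrocyte well.

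Accessibility peaks were listed by the authors with their own gene annotation, with no height or score. A2m, Serpina3n, C4b and Gfap each had a promoter peak in the KO list and none in the WT list. The KO peaks were chr6:121635788-121636479 (A2m), chr12:104406436-104406957 (Serpina3n), chr17:34743815-34744092 (C4b) and chr11:102897402-102897591 (Gfap, 203 bases before the start site as annotated), in coordinates as the lists give them, mm10 per the submitters' processing notes. The Serpina3n peak spanned the whole promoter window printed above, and the Gfap peak overlapped the end of its window that lies farthest upstream, so the STAT match lay outside the peak.

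Of 16423 genes with a peak in either list, 1218 (7.42%) had a promoter peak in the KO list only, 19 (0.116%) in the WT list only and 11997 in both. The KO list was longer, with 91130 against 56797 peaks, and the libraries differed in age, so length, age and genotype cannot be told apart. The gate genes Apoe, Glul, Rlbp1, Clu, Dkk3 and Slc1a3 had a promoter peak in both lists, and Aqp4 in the KO list only. Serping1, Ednrb and Pdgfra were also in the KO list only, while Cp and Vim were in both. The lists pool all nuclei of a retina, so a peak cannot be assigned to Müller glia.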

How the data were processed

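Members and gene lists were chosen with earlier results of these data known. Values in the deposited RNA tables are raw read counts by gene ID and well, with no molecular identifiers evident. TopHat2, HTSeq, CASAVA and Seurat, with builds mm10 and GRCm38, are named per the submitters' processing notes, without their role. The deposited peak lists hold peak positions with annotated genes and their distance (Cell Ranger ATAC 1.1.0 and mm10 per the submitters' processing notes). Symbols matched 42461 of 43628 gene IDs. CPM, thinning and gating were computed in Python 3.11.15 (pandas 2.3.3, numpy 2.4.6, scipy 1.17.1). No cell filter beyond the gate and no doublet caller was applied.

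Reads were summed over wells by library and state, and fitted in edgeR 4.0.16 (R 4.3.3) with TMM scaling, filterByExpr and the library as a block, which left 3 residual degrees of freedom, with Benjamini-Hochberg adjustment at 0.05. DESeq2 1.42.0 was an alternative. The scripts were tested on simulated data: changed genes were recovered at a low dispersion and missed at the dispersion of these data. Log2 differences within a library use CPM + 1. Intervals are exact (95%) and cover counting error only. Other-type wells held at least 5 pigment epithelium markers at 5000 CPM, 3 astrocyte markers at 1000 CPM, or 4 microglia, endothelial or pericyte markers. Named genes were all called genes or, where none was called in a direction, the 6 with the smallest p. Genes named from the lists beyond that rule were chosen after their values were seen.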

Additional observations from a re-analysis of the deposited data

Results flagged for a closer look

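In 5 gene lists every KO library moved one way between reactive and non-reactive wells and the library labelled WT 1 month the other way, and the difference between genotypes was not tested. The summed level of the Müller genes outside the rule differed by -0.65 (log2, reactive minus non-reactive) in the library labelled WT 1 month and by 0.34, 0.50 and 0.41 in KO at 1, 3 and 6 months. The summed level of transport and homeostasis genes differed by -0.76 in that WT library and by 0.47, 0.10 and 0.24 in KO. Lipid and cholesterol genes differed by -0.999 in that WT library and by 0.84, 0.15 and 0.27 in KO, and proliferation and reprogramming genes by -1.04 and by 0.66, 0.50 and 0.46. The summed level of microglia markers differed by 0.67 in that WT library and by -2.14, -1.03 and -6.79 in KO. The WT value rests on 7 reactive wells, of which 2 held pigment epithelium markers and 1 astrocyte markers.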

How the results depend on the processing

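The count of genes outside the rule that differed between reactive and non-reactive wells, 1 by edgeR, moved with the setting. It was 94 with DESeq2, 27 with no filter on low counts, 0 with no library block, 3 with Apoe at 25000 CPM, 6 with at least 10 reads of the 4 genes, 0 without pigment epithelium wells, 0 without wells of any other type, 4 with wells thinned to 20000 reads and the state from all reads, and 5 with at least 10 reads against 0 reads. At an unadjusted p under 0.05, the settings with 0 calls had 169, 154 and 281 genes. Leaving out 1 library gave 1 to 18 genes: 1 without WT 1 month, 2 without KO 1 month, 18 without KO 3 months and 12 without KO 6 months. The cause was not tested. Settings with under 5 reactive wells in the library labelled WT 1 month ran on the 3 KO libraries. The difference in share stayed between 40.0 and 55.8 points under every alternative run. Among values of 16 named genes under alternatives, 183 kept their direction and side of the threshold, 46 newly passed it and 4 no longer passed. Those 4 were all of Rdh5, the 1 gene called: with no library block, in both settings with 10 or more reads, and without WT 1 month. Rdh5 had no value, and was not counted, with Apoe at 25000 CPM or with reads and state both thinned. The same held without pigment epithelium wells and without wells of any other type. The alternatives planned for KO against WT within reactive wells, and those leaving out WT 3 and 6 months from the fit, were not run, since the first left no residual degrees of freedom and the second were never in the fit. No paired analysis was possible because the labels carry no replicate numbers that could pair samples, beyond the library block over states and the swaps of genotype within an age. Few WT wells passed the gate at 3 and 6 months, 9 and 12, and in the shallowest library, KO 1 month, thinning left out 26 of 61 gated wells. P-values of the fit measure how the difference between states varied among these libraries of mixed genotype and age, which have no replicates.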
